A study of Rattus norvegicus with 8 samples.

Results

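The tumours described here are those of mice given rapamycin together with rasagiline, set against tumours of mice given vehicle. They were chosen by their titles and are 4 of the 8 tumours in the series, 2 with the combination and 2 with vehicle. All tumours formed subcutaneously in NOD-scid females, 6 weeks of age at injection, from rat leiomyoma cells of the line ELT3-V3. Treatment was assigned at random at a tumour size of 150 to 200 mm3. The vehicle was Tween-80 at 0.25% with carboxymethylcellulose at 0.2%. Rasagiline was given at 1 mg/kg per day, and rapamycin is listed at 0.25 mg/kg per day for the group that received it alone, with no separate figure for the combination. The other 4 tumours received rapamycin alone (2) or together with clorgyline, at a clorgyline dose of 10 mg/kg per day (2). No group received rasagiline without rapamycin, so what each drug did within the combination cannot be told apart from vehicle tumours alone. The labels do not state that each tumour came from a different mouse. Tumours may therefore not be independent replicates, and spread between animals may not be measured. The p-values reflect tumour-to-tumour spread, which may be technical in part, together with spread borrowed from other genes.

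Rapamycin binds FKBP12 and so inhibits mTORC1, the kinase complex that couples growth factors and amino acids to protein, lipid and nucleotide synthesis and that restrains autophagy and lysosome formation. ELT3 cells lack tuberin, the TSC2 product that holds mTORC1 in check, and stand in for the cells of lymphangioleiomyomatosis (LAM), in which smooth-muscle-like cells with the same defect invade the lung. Rasagiline is an irreversible inhibitor of monoamine oxidase B, a mitochondrial enzyme that oxidises dopamine and other amines and releases hydrogen peroxide. It is a medicine for Parkinson's disease. NOD-scid mice lack T and B cells but keep myeloid cells, so a tumour holds host macrophages, vessels and fibroblasts beside the injected cells.

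Levels are TPM, a transcript abundance measure. TPM values divide a gene's reads by its length and scale each tumour to the same sum. Genes are known by Ensembl ID only. None of the 23918 IDs could be matched to a symbol, so pathways and cell type markers were not examined and the labelled cell type was not checked. Differences are on log2(TPM + 1), which compresses changes at low TPM. In a whole tumour, fewer cells of a type and less RNA per cell give the same fall in TPM.

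The comparison with vehicle asks what the combination did relative to untreated tumours. Of 13134 genes that reached 1 TPM in at least 2 of these 4 tumours, 916 passed the test, which is 6.97% of them (limma, Benjamini-Hochberg adjusted p below 0.05). 620 rose (4.72%) and 296 fell (2.25%). Genes that rose had a median difference of 1.41 log2 and genes that fell one of -1.21, against 0.14 over all genes tested. 500 genes rose and 191 fell by 1 log2 unit or more, a doubling or a halving of TPM + 1. 107 rose and 43 fell by at least 2 units, and 23 and 7 by at least 3. In all 916 the 2 treated tumours lay on one side of both vehicle tumours. Such separation was common in the table as a whole, higher in 40.9% and lower in 18.7% of genes tested, and it follows from the selection of the 916.

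**Figure D1:**
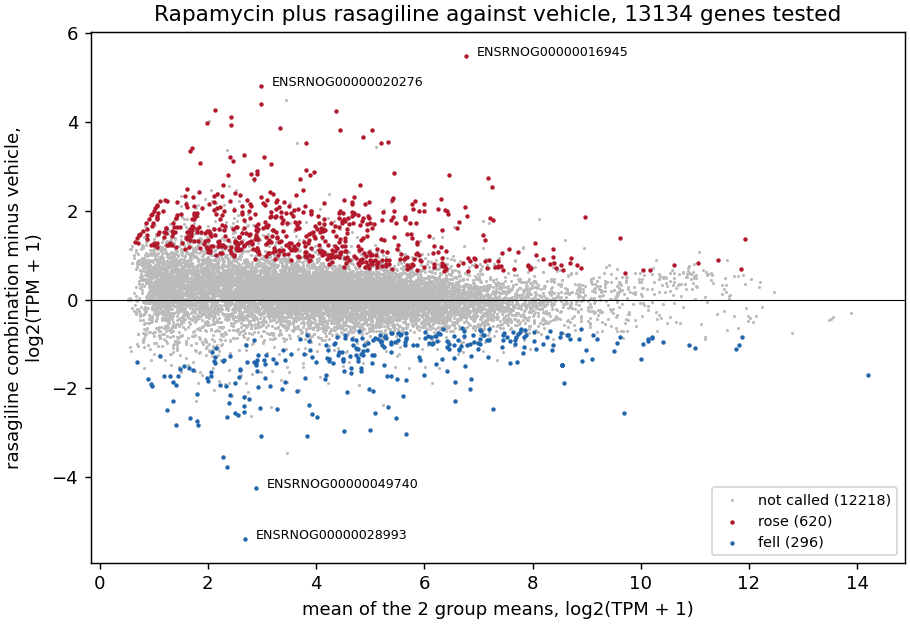
Each point is a gene, with its mean level on the horizontal axis and the rasagiline combination minus vehicle on the vertical axis, both in log2(TPM + 1). Red points rose (620), blue points fell (296), grey points did not pass (12218), and the 4 labelled IDs are the largest changes under the naming rule.

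The number of genes in each direction depended on scaling. The median difference of all genes was 0.14 log2 as deposited, and 63.9% of genes tested were higher with the combination. After each tumour was shifted to a common median, 402 genes rose and 432 fell, and after quantile normalization 360 rose and 331 fell. All 402 and all 360 were among the 620 that rose as deposited. All 296 genes that fell as deposited also fell after the median shift, and 267 of them after quantile normalization. More genes rose than fell as deposited, therefore, but not after the median shift.

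Call counts also changed when a tumour was left out or other genes were tested. Each omission leaves 1 tumour in a group and 1 residual degree of freedom, so that the spread comes from the other pair and the lone tumour is assumed to vary like it. Without either vehicle tumour 0 genes passed, although 2633 (without replicate 1) and 2500 (without replicate 2) had an unadjusted limma p below 0.05. The corresponding figure with all 4 tumours was 3612 (27.5% of genes), where chance would give 656.7. Without rasagiline combination replicate 1, 991 genes passed, and without its replicate 2, 788 passed. With every gene above 0 in any of the 4 tumours kept (19407 genes), 0 passed, with 4146 at an unadjusted limma p below 0.05. When all 8 tumours shared 1 estimate of the spread, 215 passed, 146 higher and 69 lower, and all 215 were among the 916.

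The largest rise was that of ENSRNOG00000016945. Its level was 13.8 and 16.9 TPM in the vehicle tumours, and 287.7 and 1829 TPM in the tumours with rasagiline combination. The groups were far apart, the lower treated tumour being 17.1 times the higher vehicle tumour, but the treated tumours themselves differed widely. The difference was 5.48 log2 (SE 0.813, 95% interval 3.45 to 7.51; limma adjusted p = 0.0276), and 6.81 or 4.15 without replicate 1 or 2 of the combination. The same gene stood at 507.9 and 5551 TPM after rapamycin alone and at 291.6 and 904.1 TPM after rapamycin with clorgyline. Replicate 2 of the rasagiline combination lay within the range of these other treated tumours, and replicate 1, at 287.7 TPM, just below it. The difference of the rasagiline combination from rapamycin alone was -1.21 log2 (95% interval -4.07 to 1.65; limma adjusted p = 0.959). That interval leaves room for large changes either way.

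ENSRNOG00000020276 had a different pattern over the series. It was listed at 0 and 1.22 TPM in the vehicle tumours and stood at 48.9 and 34.4 TPM with the rasagiline combination. The difference was 4.82 log2 (SE 0.418, 95% interval 3.77 to 5.86; limma adjusted p = 0.0121). Its size depends on the added 1 TPM: adding 0.1 TPM instead gave 6.82, and adding 5 TPM gave 3.05. In the other treated tumours it stood at 0.992 and 3.22 TPM after rapamycin alone and 1.02 and 3.45 TPM with clorgyline. Both rasagiline tumours were thus above all 6 others, although the naming rule had fixed this for both vehicle tumours. The gene was picked for its large rise in the rasagiline tumours, which tends to enlarge its differences from the other groups. The difference from rapamycin alone was 3.86 log2 (95% interval 2.54 to 5.17) and that from the clorgyline combination 3.81 log2 (2.49 to 5.12), but neither passed adjustment over all genes (limma adjusted p = 0.239 and 0.251).

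The steepest fall was that of ENSRNOG00000028993. It stood at 37.5 and 44.3 TPM in the vehicle tumours and was listed at 1.18e-05 and 3.74e-06 TPM with the combination, values that amount to no signal. The difference was -5.38 log2 (SE 0.200, 95% interval -5.88 to -4.88; limma adjusted p = 0.00564), and its size is set by the added 1 TPM (-8.67 at 0.1 TPM, -3.19 at 5 TPM). Both treated values lie at the floor of log2(TPM + 1) and add almost no spread. The SE and interval thus rest on the vehicle tumours and on spread that limma borrows from other genes. The other treated tumours were not uniform. Rapamycin alone gave 12.5 TPM in one tumour and 0 in the other, and clorgyline gave 0.0002 and 0.237 TPM. The difference between the rasagiline and clorgyline combinations was -0.15 log2 (95% interval -2.51 to 2.20; limma adjusted p = 0.997).

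ENSRNOG00000049740 fell from 30.2 and 32.4 TPM with vehicle to 6.31e-05 and 1.87 TPM. The difference was -4.25 log2 (SE 0.492, 95% interval -5.48 to -3.03; limma adjusted p = 0.0184). At a pseudocount of 0.1 or 5 TPM it was -6.15 or -2.63. Its level was intermediate in the other treated tumours, 11.1 and 13.8 TPM after rapamycin alone and 8.85 and 22.6 TPM with clorgyline. The rasagiline tumours were thus below all 6 others, although the naming rule had fixed this for both vehicle tumours. Picking the gene for its large fall tends to enlarge its differences from the other groups. The difference from rapamycin alone was -2.99 log2 (95% interval -4.27 to -1.70) and that from the clorgyline combination -3.17 log2 (-4.46 to -1.88). Neither passed the limma test over all genes (adjusted p = 0.293 and 0.366).

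**Figure D2:**
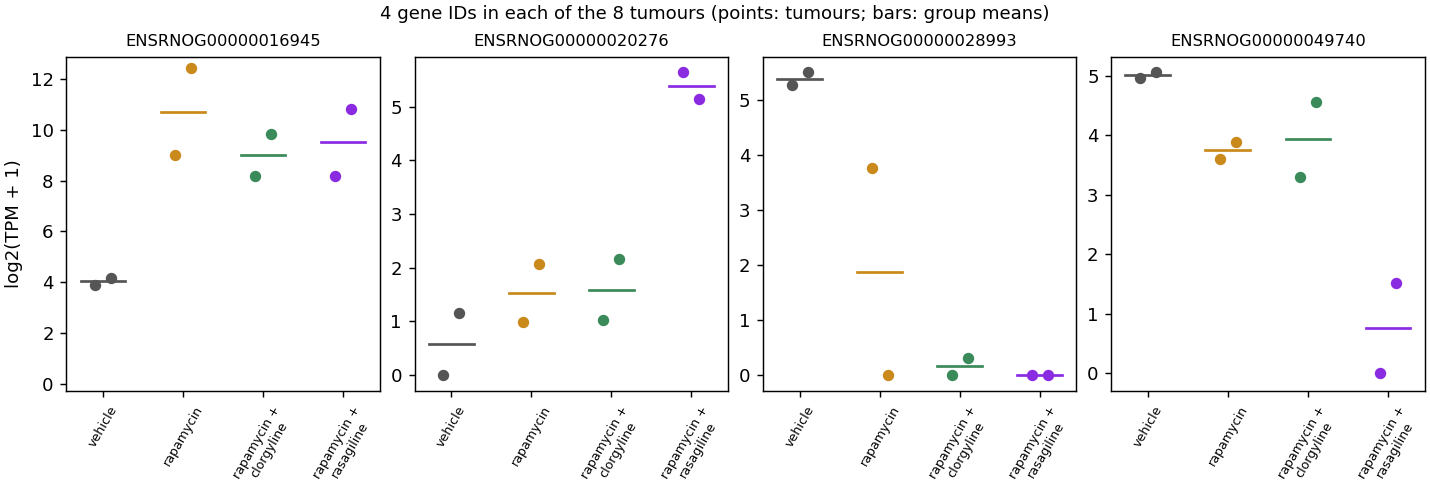
The level of each of the 4 IDs, in log2(TPM + 1), is given for the 8 tumours, as points with a bar at the group mean. ENSRNOG00000020276 is high and ENSRNOG00000049740 low in the rasagiline tumours relative to all 6 others, whereas ENSRNOG00000016945 is above both vehicle tumours in every treated tumour.

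The calls of these 4 IDs varied with the fit. With all 8 tumours fitted, ENSRNOG00000016945 had a limma adjusted p of 0.0729 and ENSRNOG00000028993 of 0.0526, while ENSRNOG00000020276 (0.0229) and ENSRNOG00000049740 (0.0291) still passed. At a pseudocount of 0.1 TPM the adjusted p of ENSRNOG00000049740 was 0.0593. None of the 4 passed with no filter (0.083 to 0.113). Without a vehicle tumour none passed of the 3 that could be fitted. ENSRNOG00000028993 then reached 1 TPM in a single tumour and was not tested. Every fit that gave a value kept the direction.

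The direction of change differed with the level of the gene. Among 1301 genes with a mean below 2 TPM over the 4 tumours, 3.61% rose and 0.538% fell, with a median difference of 0.32 log2. Between 2 and 5 TPM, 5.94% of 1651 genes rose and 1.64% fell. Between 5 and 20 TPM, 5.22% of 4273 genes rose and 1.29% fell, and between 20 and 100 TPM, 4.23% of 4423 genes rose and 2.53% fell. The order was the opposite among the 1486 genes at 100 TPM or more, of which 4.37% rose and 6.39% fell, with a median of -0.03 log2. The median SE was 0.268 log2 below 2 TPM and 0.151 at 100 TPM or more, so the shares called also depend on precision. By the medians, genes of low level leaned higher with the combination, and abundant genes did not. The filter keeps a gene that reached 1 TPM in both tumours of a single group. At least 1 TPM was reached by 13270 and 13069 genes with the combination and by 12535 and 12479 with vehicle. The part of the filter in the lean of the lowest class was not tested.

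The gradient with level was present in each pairing of a treated with a vehicle tumour. The pairings reuse the 4 tumours on which the genes and classes were set, so they are not independent of each other. The median difference below 2 TPM was between 0.31 and 0.38 log2 over the 4 pairings, and at 100 TPM or more it was between -0.05 and -0.002. After the median shift, 1.77% of the lowest class rose and 0.615% fell, while 1.75% of the highest class rose and 9.02% fell. In rapamycin alone minus vehicle, the medians of the lowest and highest classes were 0.06 and -0.04 log2, and with clorgyline they were 0.16 and -0.02. These comparisons share the vehicle tumours. The genes and the level classes were set on the rasagiline and vehicle tumours alone. The medians of the other treated groups are therefore not on an equal footing with those of the rasagiline combination.

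**Figure D3:**
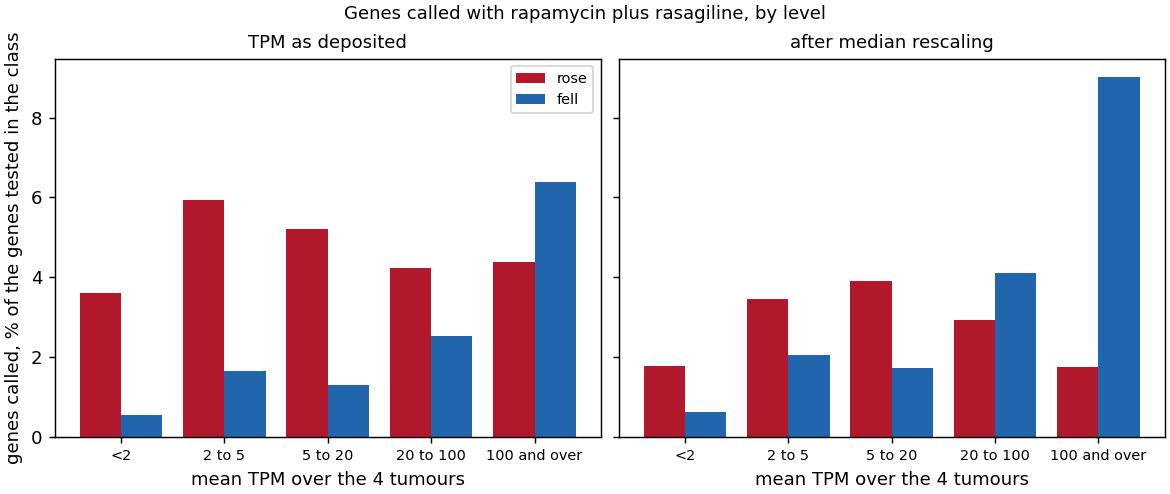
Bars give the percentage of tested genes that rose (red) or fell (blue) with the rasagiline combination in 5 classes of mean TPM, as deposited (left) and after the median shift (right). In both panels the genes at 100 TPM or more are the class with the largest share that fell, 6.39% and 9.02%.

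The genes that fell held a larger share of the TPM with vehicle than with the combination, which follows from their selection. They made up 10.5% and 10.6% of the TPM of the vehicle tumours and 4.81% and 4.18% with the rasagiline combination. The genes that rose held 2.62% and 2.69% with vehicle and 5.88% and 5.82% with the combination. The gene of highest TPM in both vehicle tumours was among those that fell, from 31726 and 35508 TPM to 14152 and 7681 TPM (-1.69 log2, limma adjusted p = 0.0427). Its level was 15605 and 3620 TPM after rapamycin alone, and 29462 and 9698 TPM with clorgyline, so it also differed widely between tumours given the same treatment. Each tumour sums to about 1e+06 TPM. This 1 gene therefore made up a sizeable part of the share held by the genes that fell, and of its drop. Because every tumour sums to the same TPM, a fall in such genes raises the TPM of the others. Its part in the shift of all genes was not tested. The 10 most abundant genes held 11.8% and 12.5% of the TPM with vehicle, against 8.67% and 8.05% with the rasagiline combination.

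In the tumours not used to choose them, the genes that rose held 4.62% and 5.70% of the TPM after rapamycin alone and 4.41% and 4.66% with clorgyline. All 4 values lay between vehicle and the rasagiline combination. The genes that fell held 5.23% and 3.89% after rapamycin alone, which spans the rasagiline values, and 7.39% and 4.84% with clorgyline. The median difference from vehicle of the genes that rose was 1.41 log2 with rasagiline, 0.75 with rapamycin alone and 0.82 with clorgyline. For the genes that fell the medians were -1.21, -1.12 and -0.87. The vehicle tumours are common to these differences, and the genes were selected on the rasagiline tumours, which enlarges the first value of each set.

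**Figure D4:**
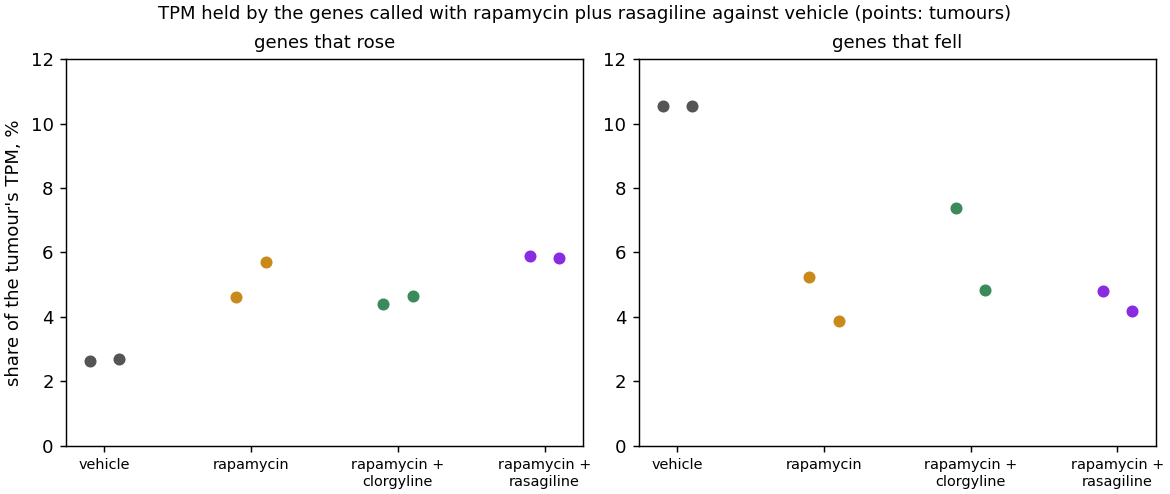
Each point is a tumour, and the vertical axis is the percentage of its TPM held by the 620 genes that rose (left) or the 296 that fell (right) with the rasagiline combination against vehicle. The rasagiline tumours sit at 5.88% and 5.82% on the left and at 4.81% and 4.18% on the right.

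To see where the rasagiline tumours differed from every other tumour, genes were counted whose 2 tumours of a group lay above or below all 6 others by at least 1 log2 unit, among the 13686 genes that reached 1 TPM in at least 2 of the 8 tumours. 24 genes were above and 3 below in the rasagiline combination. The same counts were 5 and 7 for rapamycin alone, 9 and 1 for the clorgyline combination, and 44 and 46 for vehicle. After a median shift the rasagiline counts were 19 and 4, and they were 26 and 3 without replicate 2 of rapamycin alone, the group whose tumours differed most from each other. These counts describe the tumours and carry no test.

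**Figure D5:**
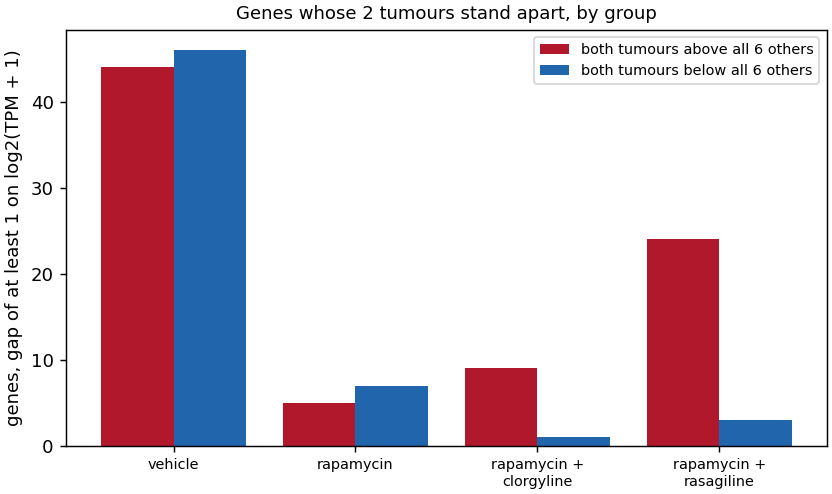
Bars give, for each group, the number of genes whose 2 tumours both lay above (red) or both below (blue) all 6 other tumours by at least 1 on log2(TPM + 1). The rasagiline combination has 24 above and 3 below.

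8 genes stood above all other tumours by at least 2 log2 units with rasagiline, against 0 for rapamycin alone, 1 for the clorgyline combination and 4 for vehicle. They include ENSRNOG00000020276. One of the 8 was listed at 0 in all 6 other tumours and at 6.92 and 46.7 TPM in the rasagiline tumours. Another was at 38.5 and 36.4 TPM with rasagiline and at no more than 4.79 TPM elsewhere. A further gene was at 46.0 and 47.7 TPM, with 8.59 TPM the highest value in any other tumour. All 8 were among the 620 genes that rose against vehicle, which follows largely from their selection, since the other tumours include both vehicle tumours.

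The direct tests against the other treated groups, in a fit of all 8 tumours, called few genes. 2 genes were higher with rasagiline than after rapamycin alone and 0 lower, which is 0.0146% of 13686 (limma). 3 were higher than with clorgyline and 0 lower, which is 0.0219%. 795 genes (5.81%) had an unadjusted limma p below 0.05 in the comparison with rapamycin and 629 (4.6%) in that with clorgyline, where chance would give 684.3. The 95% intervals of these differences fell inside 1 log2 unit either way for 66.6% and 67.7% of genes, but for 37.7% and 35.7% of the 916 genes called against vehicle. For most of those 916 genes the interval thus reached beyond 1 log2 unit. They were selected on the rasagiline tumours, so these shares reflect the size of the differences as well as their precision. The doses of clorgyline and rasagiline also differ.

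2 genes passed in all 3 comparisons. The first was at 37.7 and 37.0 TPM in the rasagiline tumours, close to each other, and between 1.38 and 3.05 TPM in the 6 others. It was 3.51 log2 above rapamycin alone (95% interval 2.90 to 4.13; limma adjusted p = 0.0254). The second was at 127.2 and 104.7 TPM, against 14.3 to 24.2 TPM in the others, and 2.34 log2 above rapamycin alone (1.87 to 2.82; limma adjusted p = 0.0366). In neither did the rasagiline tumours come near another tumour, which follows largely from choosing genes that passed in all 3 comparisons. The calls against rapamycin were lost when any single vehicle, clorgyline or rasagiline tumour was left out, while 405 genes passed without rapamycin replicate 1 and 4 without its replicate 2. The calls against clorgyline were lost in the same 6 omissions.

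The replicate tumours of the rasagiline combination differed less than those of rapamycin alone and about as much as those of the clorgyline combination. Log2(TPM + 1) values correlated across genes at r = 0.973 between the rasagiline tumours and 0.975 between the clorgyline tumours. In the rasagiline combination 607 genes (4.62%) differed by at least 1 log2 unit between replicates, and with clorgyline 664 (5.06%). The counts were 388 (2.95%) for vehicle and 1614 (12.3%) for rapamycin alone. The genes counted were those tested against vehicle, chosen on the rasagiline and vehicle tumours only. Genes are not independent replicates. A value above 0 was listed for 17124 and 17266 genes in the vehicle tumours, and for more, 18012 and 17626, in the rasagiline tumours. Of the 12218 genes that did not pass against vehicle, 70.1% had a 95% interval within 1 log2 unit either way, and 533 differed by at least 1 unit without passing.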

How the data were processed

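Total RNA of each tumour was sequenced from Illumina TruSeq libraries, per the labels' protocols. The authors deposited 1 table of TPM for 23918 rat Ensembl gene IDs. Build rn6, bedtools, DESeq2, STAR 2.4.0f1 and SAMtools 0.1.18 appear in the submitters' processing notes, with no role stated. Not given in the sources used here are how TPM was computed, the annotation and whether host (mouse) reads were removed. TPM keeps no depth, so no counting interval was computed.

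Columns were matched to samples by title. Genes with at least 1 TPM in at least 2 libraries were tested on log2(TPM + 1) with limma 3.58.1 (R 4.3.3), variance trend, two-sided, Benjamini-Hochberg adjustment over all genes tested, threshold 0.05. The vehicle comparison used its 4 libraries alone (2 residual and 3.55 prior degrees of freedom). The other comparisons used all 8 (4 and 3.37). An exact permutation test of 2 against 2 cannot go below p = 0.333 and was not used. Plots used matplotlib 3.10.9.

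The RefSeq table (GRCr8, 47357 genes) holds 0 Ensembl IDs, so 48 gene lists fixed by symbol, the motif search and the rule for named symbols were not run, and no sequence is printed. The rule for that case named 2 IDs per direction, those of greatest change among genes that passed without overlap and averaged at least 5 TPM in the higher group. Other genes given by value were picked with their values in view. The tumours compared, the lists and the rules were chosen with earlier results of these data known.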

Additional observations from a re-analysis of the deposited data

Results flagged for a closer look

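3 genes were set apart because their response with rasagiline differed from that in another treated group by a direct test. They were picked with their values in view. The first was 3.51 log2 higher than after rapamycin alone and 3.54 higher than with clorgyline (limma adjusted p = 0.0254 and 0.0239), higher in 2 of 2 rasagiline tumours than in any other. The second was 2.34 and 2.43 log2 higher (limma adjusted p = 0.0366 and 0.028), again in 2 of 2. The third was 4.17 log2 higher than with clorgyline (limma adjusted p = 0.0409), at 19.4 and 24.0 TPM against 0.242 and 0.271 TPM. After rapamycin alone it stood at 0.807 and 2.91 TPM. These calls come from the fit in which all 8 libraries share 1 estimate of the spread. None passed in either comparison with no filter on low values, or without any single vehicle, clorgyline or rasagiline tumour, and none passed against rapamycin with only these 2 groups fitted. Against clorgyline, 2 genes, not matched here to these 3, passed when only the clorgyline and rasagiline combinations were fitted. No group of 2 tumours was large enough for a check for outlying samples.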

How the results depend on the processing

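Of 12 alternatives for the comparison with vehicle, no filter gave 0 genes (0 rose, 0 fell) and the fit of all 8 libraries 215 (146 rose, 69 fell). Quantile normalization gave 360 that rose and median rescaling 402. Leaving out single libraries gave 0 to 991 genes, 0 to 622 that rose and 0 to 369 that fell, and the zeros were those without a vehicle tumour. In the comparison with rapamycin alone the count was 5 and 6 at a pseudocount of 0.1 and 5 TPM, 0 with no filter, 1 after quantile normalization, 1 without a variance trend and 0 with only these groups fitted. In the comparison with clorgyline it was 6 at a pseudocount of 5 TPM and 0 with no filter. Leaving out single libraries gave 0 to 405 and 0 to 4. The cause of these shifts was not tested. Alternatives for the gene lists were not run, since no symbol was matched. The median shift and the omission of rapamycin replicate 2 in the counts of genes that stand apart were chosen after seeing the data. Counts with no minimum gap went from 956 above and 172 below all other tumours to 658 and 485 after the median shift, and to 1463 and 444 without rapamycin replicate 2. No paired analysis was made. The titles carry a letter and a number, and a letter recurs across the vehicle, clorgyline and rasagiline groups. The labels do not state what it means or that it links tumours. Depth is unknown, so values near 0 TPM have no detection limit here.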
